A study of Bos taurus with 24 samples.

Results

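The miR-99, miR-100 and miR-125 families were represented by 5 mature miRNAs in the mammary gland of dairy cows, bta-miR-99a-5p, bta-miR-99b, bta-miR-100, bta-miR-125a and bta-miR-125b. They were chosen by name from the 796 miRNAs listed in both deposited count tables, and each of the 5 was present under exactly that name. Small RNA had been sequenced from mammary biopsies of 5 Holstein (HOLS) and 6 Montbéliarde (MONT) cows in midlactation. Each cow gave a biopsy before feed restriction (CONT, with feed freely available) and another after 6 days of it (REST), which makes 22 libraries in 4 groups. Per the labels the ration in REST covered 60% of the net energy of lactation calculated beforehand. A lower share is given in the methods. The biopsies came from alternating sides of the rear udder, so period and side cannot be told apart within a cow. No genotype, transgene or drug distinguished the groups. Samples of a further HOLS cow are listed in the labels and were not analysed here.

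A miRNA is a short RNA that guides a protein complex to matching mRNAs and lowers their translation or stability. Its seed, the bases near the 5′ end that pair first with a target, sets the family. MiR-99a, miR-99b and miR-100 share a seed and are known for repressing MTOR, the kinase that couples nutrient supply to protein synthesis and growth. MiR-125a and miR-125b share another seed, are the vertebrate relatives of the worm timing RNA lin-4, and are known to repress LIN28, a blocker of let-7 maturation, and the growth factor receptor ERBB2. Because each transcript of these clusters carries a miR-99 or miR-100 gene, a let-7 gene and a miR-125 gene, partners made from the same transcript can be compared within a library.

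The 3 clusters were found in the bovine RefSeq annotation (assembly ARS-UCD2.0), with no further miRNA gene between their ends. On chromosome 1 the order of the genes is MIR125B-2, MIRLET7C and MIR99A, and on chromosome 15 it is MIR125B-1, MIRLET7A-2 and MIR100. On chromosome 18 the order is MIR99B, MIRLET7E and MIR125A. Mature miR-125b is thus encoded at 2 loci, and its count does not say which of them the reads came from. How reads shared by near-identical miRNAs such as miR-99a and miR-100 were assigned is not given in the sources used here, so their single counts are uncertain to that extent.

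Total counts lay between 6087865 and 18913916 per library. The members were far from the limits of this depth, with the lowest count at 3358 for miR-100 and the highest at 91683 for miR-125a. Per the authors MONT libraries were of lower quality, with more short and adapter reads and a smaller share of clean reads than in HOLS. Breed and library quality can therefore not be told apart here. The libraries of MONT cow 9615 stood apart. Across all miRNAs tested in MONT, the deviations of its CONT and REST libraries from their period means correlated with r = -0.33, while the other 5 MONT cows had r from 0.07 to 0.76. The labels of its periods were used as given, and whether its CONT and REST libraries were exchanged was not tested. An exchange would turn the sign of every change given for this cow. Calls over all miRNAs and marker lists are given with and without it where they changed, while levels, group means, correlations and permutation tests include it unless stated. Of 10 listed miRNAs of epithelium, such as the miR-200 family, 9 were in the tables and none of these was at 0 in any group. Their summed normalized count was 432157 to 542963 before and 305123 to 667419 after restriction in HOLS, and 221780 to 560876 before and 174159 to 405659 after it in MONT.

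All members were abundant. Normalized counts, which are counts divided by size factors estimated over all 22 libraries, placed miR-125a 34th, miR-125b 46th, miR-99a-5p 47th, miR-99b 48th and miR-100 57th of the 796 by mean level. The 5 together made up 0.632% of the normalized counts before and 0.682% after restriction in HOLS, and 0.918% before and 1.27% after it in MONT (0.842% and 1.39% without cow 9615). In each of the groups miR-125a had the highest mean and miR-100 the lowest. In HOLS CONT the mean normalized counts were 24666 ± 3782 for miR-125a, 13162 ± 2457 for miR-99a-5p, 12543 ± 2101 for miR-125b, 11440 ± 2379 for miR-99b and 6162 ± 1610 for miR-100 (SD, n = 5).

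The steps at both ends of this order were larger than the spread between libraries, and the middle was not resolved. In HOLS CONT miR-125a exceeded miR-99a-5p in 5 of 5 libraries, with a mean log2 ratio of 0.91 ± 0.31 (SD), and miR-99b exceeded miR-100 in 5 of 5 with 0.90 ± 0.17. The neighbours miR-99a-5p and miR-125b differed by a log2 ratio of 0.07 ± 0.16, less than its SD, and so did miR-125b and miR-99b with 0.14 ± 0.29. The same held in MONT REST, where miR-125a exceeded miR-125b in 6 of 6 libraries by 0.67 ± 0.07, while miR-125b, miR-99a-5p and miR-99b were within the SD of their ratios. Mature miRNAs are of nearly the same length, so counts need no length scaling, but ligation in library preparation differs between sequences and an order of counts is not an order of molecules.

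**Figure D1:**
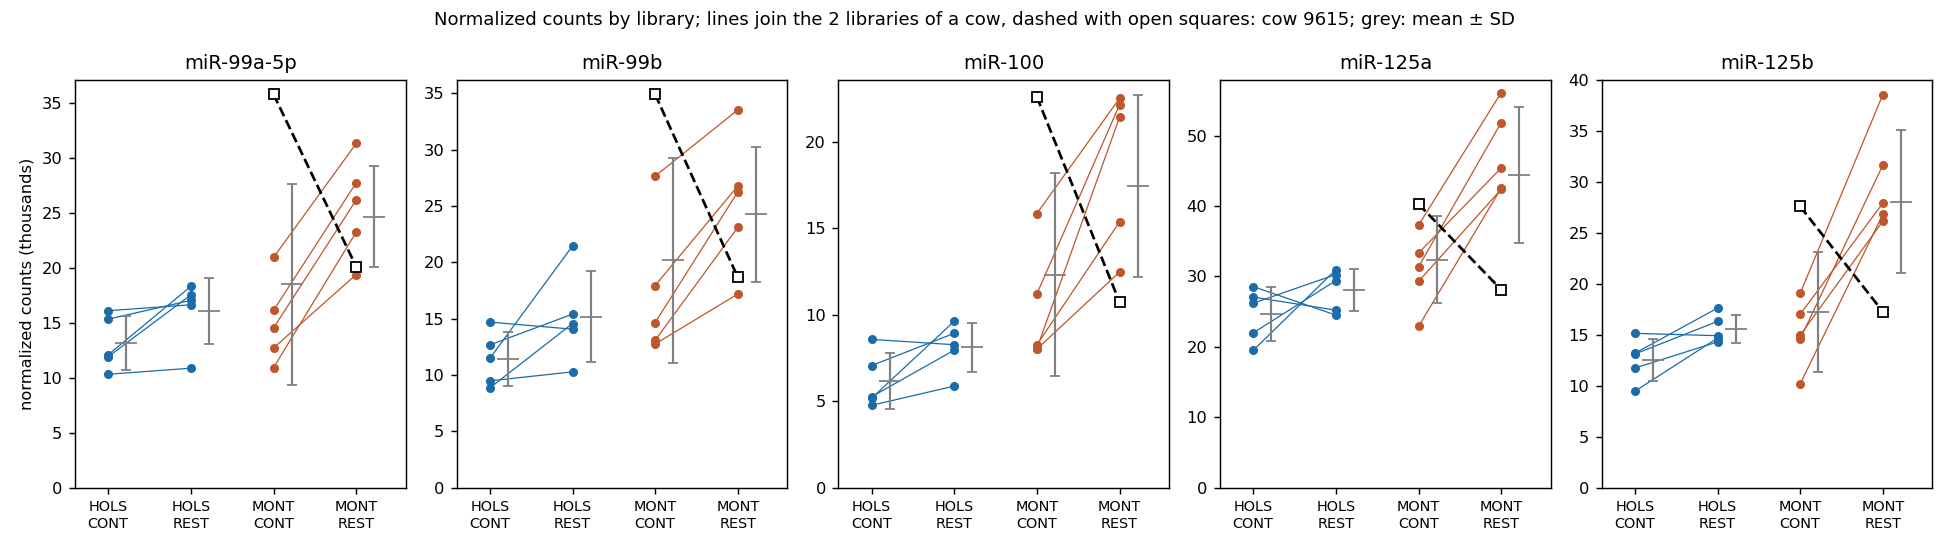
Normalized counts (divided by 1000) of the 5 members in each library, by breed and period. Lines join the libraries of 1 cow, grey bars are the mean ± SD of the group (n = 5 in HOLS, n = 6 in MONT), and the dashed line is cow 9615, the only cow whose lines fall in all 5 panels.

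Feed restriction in HOLS was accompanied by small differences in all 5 members, none of which passed the test without the cow in the model. MiR-100 had normalized counts of 5252, 5171, 4762, 8570 and 7056 in CONT for cows 1155, 1165, 2182, 8200 and 9195, and of 7948, 9617, 5871, 8263 and 8922 in REST for the same cows. Of these cows only 8200, the highest in CONT, was not higher in REST, and the periods overlapped. For miR-99a-5p the CONT values were 11924, 12100, 10330, 16114 and 15341 and the REST values 17549, 18324, 10879, 16648 and 17056 in that order of cows. Each cow was higher in REST on this scale, although cow 2182 stayed below all other REST libraries and cow 8200 differed by only 0.05 in log2. As a share of the library total cow 9195 was lower in REST, which left 4 of 5 cows higher.

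MiR-125b in HOLS CONT was at 13203, 11749, 9476, 13126 and 15159, again for cows 1155, 1165, 2182, 8200 and 9195. In REST it was at 17637, 14318, 14691, 16332 and 14931. It was higher in REST in 4 of 5 cows and the groups overlapped through cow 9195. The range of miR-99b was 8859 to 14700 before and 10283 to 21457 after restriction, and that of miR-125a was 19503 to 28566 and 24514 to 30955. MiR-99b was higher in 4 of 5 cows and miR-125a in 3 of 5. As shares of the library total miR-100 was higher in 5 of 5 cows, miR-99b in 4, miR-125b in 3 and miR-125a in 2. The periods overlapped for all 5 members, where 1.55% of 388 miRNAs had every REST library above every CONT library.

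In the edgeR quasi-likelihood fit on the counts, 0 of 5 members were called in HOLS at an adjusted p of 0.05, where 2.41% of the 374 miRNAs tested were called. The log2 fold changes of REST over CONT were 0.38 ± 0.18 (SE) for miR-100, 0.38 ± 0.18 for miR-99b, 0.30 ± 0.14 for miR-125b, 0.27 ± 0.16 for miR-99a-5p and 0.18 ± 0.14 for miR-125a. All were above 0, with a median of 0.30 against 0.02 over all miRNAs tested. Scaled by library size alone, the members' median was 0.14 against -0.15 over all miRNAs, and the log2 fold change of miR-125a was 0.01. Adjusted p-values ran from 0.207 for miR-125b to 0.457 for miR-125a, and at an unadjusted p of 0.05 1 member and 87 of all miRNAs passed. DESeq2 called none of the members, where it called 5.46% of the miRNAs it tested.

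Taking the cow as a replicate block changed the call for miR-100. Its log2 fold change with the block was 0.41 ± 0.12 (SE) with an adjusted p of 0.0386 in edgeR, so that miR-100 rose in REST in this fit, in which 16.3% of the 374 miRNAs were called and 8.02% as higher. DESeq2 with the block called 3 of 5, namely miR-99b, miR-100 and miR-125b, where it called 19.5% of miRNAs and 11.1% as higher. The adjusted p-values of miR-99b, miR-125b and miR-99a-5p were 0.0516, 0.0589 and 0.0692 with the block, and that of miR-125a was 0.370. The call of miR-100 was lost without cow 1155, 1165, 2182 or 9195, each of which left 0 members called, and 2 members were called without cow 8200, where 14.9% of 375 miRNAs were called.

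In MONT the members were higher in REST in 5 of 6 cows, and cow 9615 went the other way in each of them. For miR-125b the CONT libraries had a lowest value of 10198, a median of 16005 and a highest of 27616, and the REST libraries 17293, 27390 and 38607. The highest CONT library and the lowest REST library were both from cow 9615. MiR-100 had 8008, 9721 and 22583 in CONT and 10732, 18380 and 22493 in REST, and again cow 9615 held the highest CONT and the lowest REST value. For miR-99a-5p the values were 10929, 15339 and 35811 in CONT and 19404, 24726 and 31331 in REST, with cow 9615 highest in CONT and the second lowest in REST.

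Cow by cow, the log2 change of miR-125b was 1.12, 0.71, 1.02, 1.40 and 0.80 in cows 1613, 1640, 1652, 2614 and 5663, against -0.68 in cow 9615. The change of miR-100 was 0.98, 0.64, 0.51, 1.41 and 0.90 in the same 5 cows and -1.07 in cow 9615. All 5 members were higher in REST in these 5 cows and lower in REST in cow 9615. MiR-99a-5p differed by 0.58 to 1.09 in the 5 cows and by -0.83 in cow 9615, miR-99b by 0.28 to 0.84 and by -0.90, and miR-125a by 0.45 to 0.89 and by -0.52.

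With all 6 MONT cows 0 of 5 members were called in edgeR, as were 0% of the 349 miRNAs tested. There were 47 miRNAs at an unadjusted p under 0.05, 2 of them members, and DESeq2 also called none. The log2 fold changes were 0.70 ± 0.22 (SE) for miR-125b with an adjusted p of 0.300, 0.50 ± 0.28 for miR-100, 0.44 ± 0.17 for miR-125a, 0.42 ± 0.24 for miR-99a-5p and 0.27 ± 0.25 for miR-99b. Their median was 0.44, and that of all miRNAs tested was -0.01. The replicate block left the count at 0.

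Without cow 9615, 4 of 5 members rose in REST, where 12.8% of 358 miRNAs were called and 7.26% were called as higher. MiR-125b had a log2 fold change of 0.96 ± 0.19 (SE) with an adjusted p of 0.0149 in edgeR, miR-100 of 0.84 ± 0.24 with 0.0413, miR-99a-5p of 0.73 ± 0.20 with 0.0384 and miR-125a of 0.60 ± 0.16 with 0.0346. MiR-99b, at 0.53 ± 0.25 with an adjusted p of 0.148, did not pass. In the fit with the replicate block all 5 were called without this cow, where 39.1% of the 358 miRNAs were called and 18.2% as higher, and no other cow, when left out, gave any call among the members. The fit that leaves out a cow and has the block was chosen after seeing the data.

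**Figure D2:**
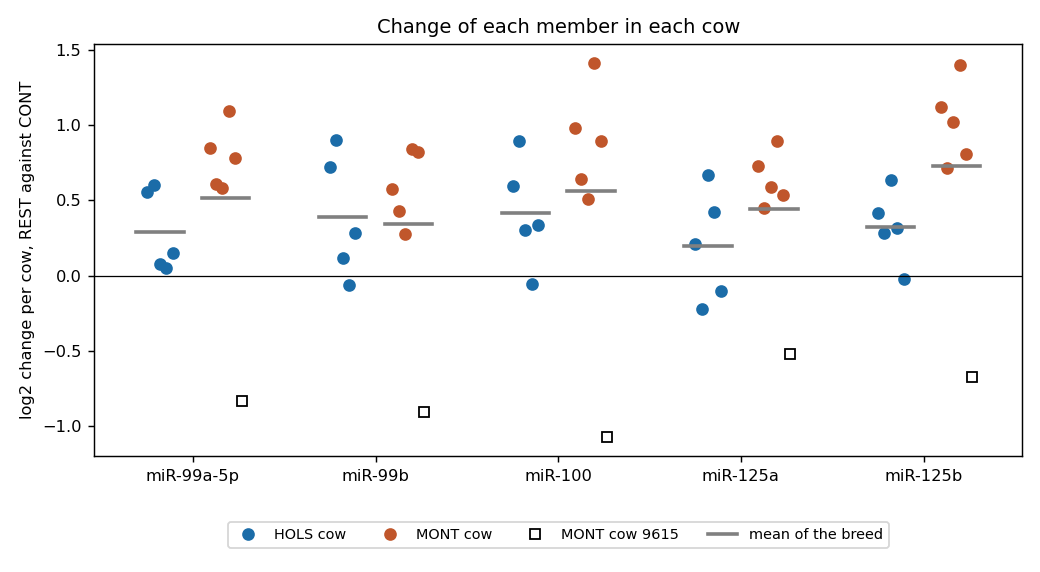
Log2 change of each member (REST against CONT, normalized counts) in each of 11 cows, with HOLS in blue, MONT in orange and grey lines for the mean of each breed. Cow 9615 (open squares) lies between -1.07 and -0.52, while every other MONT cow lies above 0 for every member.

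Of the marker lists of cell types, those of smooth muscle and stroma and of leukocytes were higher in REST in their medians in both breeds, as were the members. In a bulk biopsy fewer cells of a type and less RNA per cell cannot be told apart. Of 6 listed miRNAs of smooth muscle and stroma, among them miR-143, miR-145, miR-199a and miR-214, 6 had log2 fold changes above 0 in both breeds and 0 were called, with medians of 0.29 in HOLS and 0.67 in MONT. Without cow 9615, 4 of the 6 rose in MONT, with a median of 1.003, as did 4 of the 5 members. The epithelial list had medians of -0.10 in HOLS and -0.27 in MONT, with 0 of 9 called, and without cow 9615 of -0.58 in MONT, with 2 of 9 called as lower. With the replicate block 2 of the 6 stromal miRNAs were called as higher and 3 of the 9 epithelial miRNAs as lower in HOLS. In that fit 16.3% of all 374 miRNAs were called and 8.02% as higher. The summed normalized count of the 6 stromal miRNAs was 1665530 to 2542960 before and 2480590 to 3176470 after restriction in HOLS, and 2098940 to 4206330 before and 2355360 to 4864310 after it in MONT, and none of them was at 0. The sum was higher in REST in 5 of 5 HOLS and 4 of 6 MONT cows, and in cow 9615 it differed by -0.02 on the log2 scale. Per the authors miR-143 was the most abundant miRNA, so the sum does not stand for each miRNA of the list. Leaving out cow 9615 moved the MONT log2 fold change of miR-143 from 0.23 to 0.27 and of miR-145 from 0.16 to 0.13. Those of miR-199a-3p, miR-199a-5p, miR-199b and miR-214 moved from 0.68, 0.73, 0.70 and 0.66 to 1.05, 1.19, 0.96 and 1.30. The sum of the epithelial list differed by 0.80 in cow 9615, the only MONT cow in which it was higher in REST. The part of these cells in the members' differences was not tested.

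The other marker lists had no calls between the periods without the block, with or without cow 9615. Their calls with the block in HOLS stand beside 8.02% of all 374 miRNAs called as higher in that fit. Of 5 leukocyte miRNAs the median log2 fold change was 0.17 in HOLS and 0.21 in MONT, and 2 were called as higher in HOLS with the replicate block. The leukocyte sum was higher in REST in 4 of 5 HOLS and 5 of 6 MONT cows, with -0.61 in log2 in cow 9615. In that cow the sums of endothelium, red blood cells and skeletal muscle differed by 0.37, 0.75 and -0.95. The 2 endothelial miRNAs had medians of 0.32 and -0.08, with 1 called as higher in HOLS with the block. For 3 miRNAs of red blood cells the medians were -0.09 and -0.75, again with 1 called as higher in HOLS with the block. Of 4 listed miRNAs of skeletal muscle 2 were tested, with medians of 0.0058 and -0.0025 and no call. The part of these lists was not tested either.

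The change with restriction was not shown to differ between the breeds. The difference in log2 change, MONT minus HOLS, was 0.43 ± 0.28 (SE) for miR-125b, 0.31 ± 0.23 for miR-125a, 0.17 ± 0.33 for miR-99a-5p, 0.16 ± 0.38 for miR-100 and -0.09 ± 0.35 for miR-99b. The interaction called 0 of 5 members, as it called 0% of the 388 miRNAs tested, with 3 miRNAs and none of the members at an unadjusted p under 0.05. DESeq2 called none either. Without cow 9615 and with the replicate block, miR-125b had a difference of 0.73 ± 0.16 with an adjusted p of 0.0385 in edgeR, where 5.93% of 388 miRNAs were called and 4.12% as higher.

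Before restriction the members were higher on average in MONT than in HOLS, and miR-100 passed the test in the fit over all 4 groups but not in several alternatives. In HOLS CONT miR-100 lay between 4762 and 8570, and in MONT CONT its lowest value was 8008, its median 9721 and its highest 22583, so that 3 of 6 MONT libraries exceeded every HOLS library. The log2 difference, MONT minus HOLS, was 0.97 ± 0.27 (SE) with an adjusted p of 0.0400 in edgeR. This was 1 of 5 members called, while 7.47% of the 388 miRNAs were called and 3.09% as higher in MONT. For miR-99b the difference was 0.79 ± 0.25 with an adjusted p of 0.0645. MiR-99a-5p was at 0.47 ± 0.24, miR-125b at 0.43 ± 0.20 and miR-125a at 0.37 ± 0.16, with adjusted p-values from 0.181 to 0.246. Without cow 9615 the difference was 0.60 ± 0.23 (SE) for miR-99b and 0.32 ± 0.14 for miR-125a. It was 0.27 ± 0.16 for miR-125b and 0.19 ± 0.18 for miR-99a-5p. The adjusted p-values of these members in edgeR then ran from 0.157 to 0.668.

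The call of miR-100 in CONT was lost in the fit on the CONT libraries alone (adjusted p = 0.135 in edgeR), without the filter on low counts (0.0799) and with library size only (0.0556). It also rested on most of the cows. Leaving out cow 9615 gave a log2 difference of 0.74 ± 0.22 (SE) with an adjusted p of 0.0957, where 0.515% of 388 miRNAs were called. The call was lost as well without cow 1155, 1165, 1652, 2182, 8200 or 9195, and the log2 difference stayed between 0.74 and 1.17. Without cow 2614, 2 members were called, where 8.03% of 386 miRNAs were called. DESeq2 on all cows also called 2, where it called 5.24% of the miRNAs it tested. No member was without overlap between the breeds in CONT, and 0.258% of 388 miRNAs had every MONT library above every HOLS library.

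After restriction 3 of 5 members were higher in MONT at the threshold, where 13.7% of the 388 miRNAs were called and 8.76% as higher. MiR-125b lay between 14318 and 17637 in HOLS REST, and in MONT REST it had a lowest value of 17293, a median of 27390 and a highest of 38607. Of the MONT libraries only that of cow 9615 fell within the HOLS range. The log2 difference of miR-125b was 0.87 ± 0.20 (SE) with an adjusted p of 0.0112 in edgeR.

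MiR-100 ranged from 5871 to 9617 in HOLS REST and had a lowest value of 10732, a median of 18380 and a highest of 22493 in MONT REST. Every MONT library exceeded every HOLS library, and the log2 difference was 1.13 ± 0.27 (SE), a 2.18-fold higher level, with an adjusted p of 0.0115 in edgeR. MiR-125a ranged from 24514 to 30955 in HOLS and from 28136 through a median of 43963 to 56106 in MONT, again with cow 9615 alone within the HOLS range. Its log2 difference was 0.68 ± 0.16 with an adjusted p of 0.0112.

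MiR-99a-5p and miR-99b did not pass. The libraries of miR-99a-5p did not overlap, from 10879 to 18324 in HOLS REST and from 19404 to 31331 in MONT REST, yet its log2 difference of 0.64 ± 0.24 (SE) had an adjusted p of 0.0715 in edgeR. Of the members, miR-99a-5p and miR-100 were the 2 without overlap, where 4.64% of the 388 miRNAs had every MONT library above every HOLS library. MiR-99b had a difference of 0.70 ± 0.25 with an adjusted p of 0.0655. The median difference of the 5 members was 0.70 and that of all miRNAs 0.06.

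Single cows moved the number of calls in REST. Without cow 9615 all 5 members were called, where 26.0% of 388 miRNAs were called, and without cow 1640 likewise 5, where 15.1% of 383 were called. DESeq2 called 4 of 5, where it called 20.7% of the miRNAs it tested. Without cow 1165, where 4.08% of 392 miRNAs were called, miR-100 remained the only member called, with adjusted p-values in edgeR of 0.0670 for miR-125a and 0.0638 for miR-125b.

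Some markers of cell types also differed between the breeds in REST. Of the 6 miRNAs of smooth muscle and stroma 3 were called as higher in MONT, with a median log2 difference of 0.77 over the list, and 5 of the 6 were above 0. Of the 9 epithelial miRNAs tested 2 were above 0, with 1 called as higher and 1 as lower in MONT and a median of -0.32. Of the 2 endothelial miRNAs miR-126-3p was lower in MONT by a log2 difference of 0.49 (adjusted p = 0.0248 in edgeR), and the list's median was -0.43. Red blood cells had a median of -0.37 with 0 of 3 above 0, leukocytes of 0.07 with 4 of 5 above 0 and skeletal muscle of 0.42 with 2 of 2 above 0, without a call in these lists. Without cow 9615 the calls were 4 of 6 stromal and 1 of 5 leukocyte miRNAs as higher, 2 of 2 endothelial as lower, and 1 epithelial as higher and 2 as lower. In CONT no list had a call, with medians of 0.54 for stroma (0.19 without cow 9615), -0.13 for epithelium, -0.09 for endothelium, 0.39 for leukocytes, 0.29 for red blood cells and 0.35 for skeletal muscle. The parts of cell composition and of library quality in the breed difference of the members were not tested.

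Partners of a cluster were compared as the ratio of their counts in the same library, which does not depend on how libraries are scaled. The geometric mean ratio of miR-99a-5p to miR-125b was 1.05 before and 1.02 after restriction in HOLS, and 1.03 before and 0.890 after it in MONT. For miR-99b to miR-125a the ratios were 0.460, 0.528, 0.586 and 0.545 in the same order. MiR-100 to miR-125b gave 0.485, 0.516, 0.688 and 0.612. These means say that miR-99a-5p and miR-125b were counted about equally often, whereas miR-99b and miR-100 were counted less often than their miR-125 partners in every library.

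None of the 12 differences in ratio between groups passed a two-sided exact permutation test after adjustment over the 12. The smallest p belonged to miR-100 to miR-125b in CONT, where the libraries ran from 0.398 to 0.653 in HOLS and from 0.470 to 0.830 in MONT. The groups overlapped through MONT cows 1640 and 5663. The log2 ratio was higher by 0.51 ± 0.19 (SE) in MONT, with an exact p of 0.0325 and an adjusted p of 0.390. Without cow 9615 the difference was 0.46, with an exact p of 0.0635 and an adjusted p of 0.571. For miR-99b to miR-125a the breed difference was 0.35 ± 0.24 in CONT and 0.05 ± 0.26 in REST, and 0.23 and -0.01 without cow 9615.

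The ratio of miR-99a-5p to miR-125b was lower in REST in 6 of 6 MONT cows, by 0.22 ± 0.15 on the log2 scale (SD, n = 6). Single cows ran from -0.44 to -0.02, and cow 9615, which moved against the others in both miRNAs, shared the direction of the ratio. The paired exact permutation test gave p = 0.0313, the smallest that 6 pairs allow, and 0.188 after adjustment over 6 paired tests. Without cow 9615 the ratio was lower in 5 of 5 cows, by 0.23 ± 0.16 (SD), with an exact p of 0.0625, the smallest that 5 pairs allow. In HOLS the ratio was higher in 3 of 5 cows, and the change did not differ between the breeds in an exact permutation test, with an adjusted p of 0.361 for each of the 3 ratios.

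**Figure D3:**
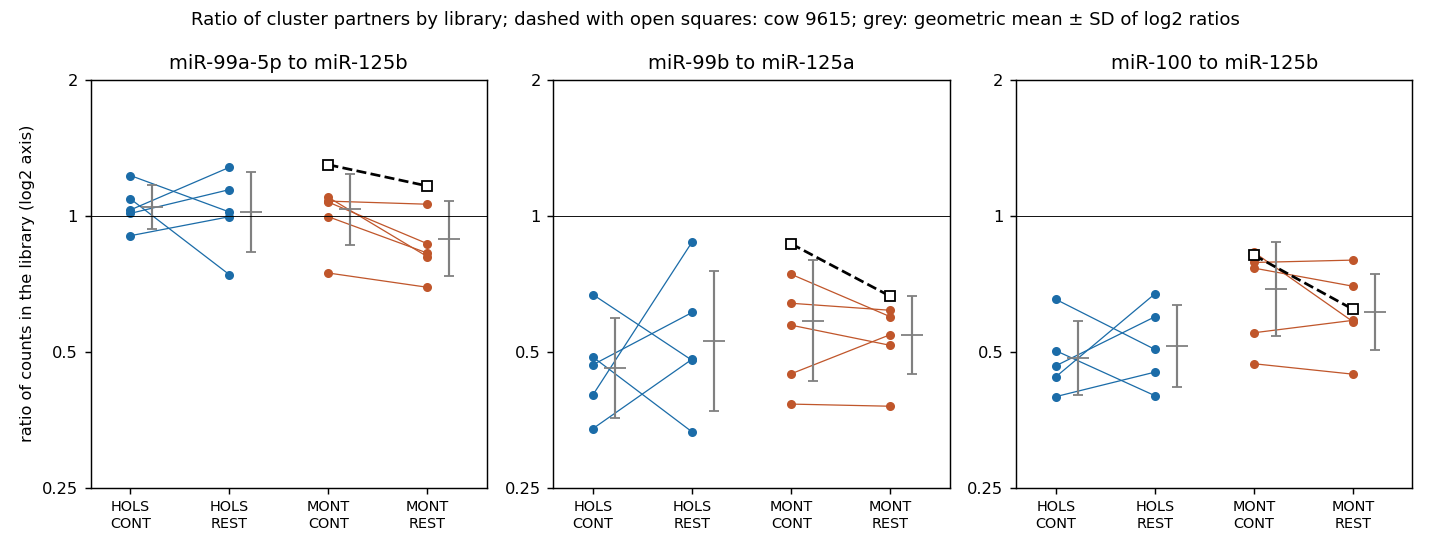
Ratio of the counts of cluster partners in each library on a log2 axis, by breed and period, with lines joining the libraries of a cow and grey bars for the geometric mean ± SD of the log2 ratios. Ratios of miR-99a-5p to miR-125b lie around 1 in 3 groups and at 0.890 in MONT REST, where all 6 lines slope down, and the other pairs stay below 1.

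Across libraries each member had its highest correlations among the 5 with its own seed family, not with its cluster partner, though the difference between correlations was not tested. Over the 22 libraries the log2 normalized counts of miR-99b and miR-100, which lie on different chromosomes, had a Pearson r of 0.96, and miR-125a and miR-125b had 0.95. Among 387 other miRNAs miR-100 was the closest to miR-99b, and miR-125b was the closest to miR-125a. Cluster partners had lower values, with 0.88 for miR-99a-5p and miR-125b, 0.88 for miR-100 and miR-125b and 0.72 for miR-99b and miR-125a. By this measure miR-125b ranked 11th for miR-99a-5p and 11th for miR-100, and miR-125a ranked 41st for miR-99b.

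These values are descriptions, since the libraries share breeds, cows and depth. After subtraction of the 4 group means the r of miR-99b and miR-125a was 0.41, that of miR-99b and miR-100 was 0.94 and that of miR-125a and miR-125b was 0.89. Without cow 9615, an alternative chosen after seeing the data, r over 20 libraries was 0.73 for miR-99b and miR-125a, 0.89 for miR-99a-5p and miR-125b and 0.96 for miR-99b and miR-100. MiR-99a-5p then had 0.895 with miR-99b and 0.904 with miR-100, close to the 0.893 with its partner miR-125b. Members of a seed family also resemble each other in sequence to differing degrees, and the part of shared reads in their likeness was not tested.

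The changes of single cows were compared in the same way. Over 11 cows the log2 changes of miR-99a-5p and miR-100 correlated with Pearson r = 0.98 and Spearman rho = 0.98, each with a permutation p of 1e-05, the smallest that 100000 resamples can give. For miR-125a and miR-125b r was 0.92 and rho 0.93, with adjusted permutation p-values of 0.0002 and 0.0008 over the 10 pairs. Without the 2 cows farthest from the median these r were 0.93 and 0.91. MiR-99b and miR-100 had r = 0.95 and rho = 0.88 with adjusted permutation p-values of 0.000267 and 0.0017, and r = 0.80 without the 2 cows.

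Of the cluster partners, miR-99a-5p and miR-125b had r = 0.89 and rho = 0.80 with adjusted permutation p-values of 0.001 and 0.0095, and r = 0.74 without cows 8200 and 9615. MiR-100 and miR-125b had r = 0.85 and rho = 0.73, adjusted permutation p = 0.00278 and 0.0243, but r was 0.47 without cows 2614 and 9615. For miR-99b and miR-125a r was 0.47 and rho 0.20, with permutation p-values of 0.150 and 0.557, and r was -0.12 without cows 8200 and 9615. That relation therefore rested on those cows. Within the 6 MONT cows all 10 pairs had r of 0.93 or higher with cow 9615 included. That cow lay below 0 and every other MONT cow above 0 for every member, so it alone can give such an r. No r was calculated for MONT without it, and the 5 HOLS cows were too few for a value of their own. The permutations ran over all 11 cows without regard to breed. In HOLS cows 1155, 1165, 2182, 8200 and 9195 miR-99b changed by 0.72, 0.90, 0.12, -0.06 and 0.28. MiR-125a changed by 0.21, -0.22, 0.67, 0.42 and -0.10 in that order. MiR-99a-5p changed by 0.56, 0.60, 0.07, 0.05 and 0.15, and miR-125b by 0.42, 0.29, 0.63, 0.32 and -0.02. The pooled values thus do not show that partners changed together in HOLS.

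**Figure D4:**
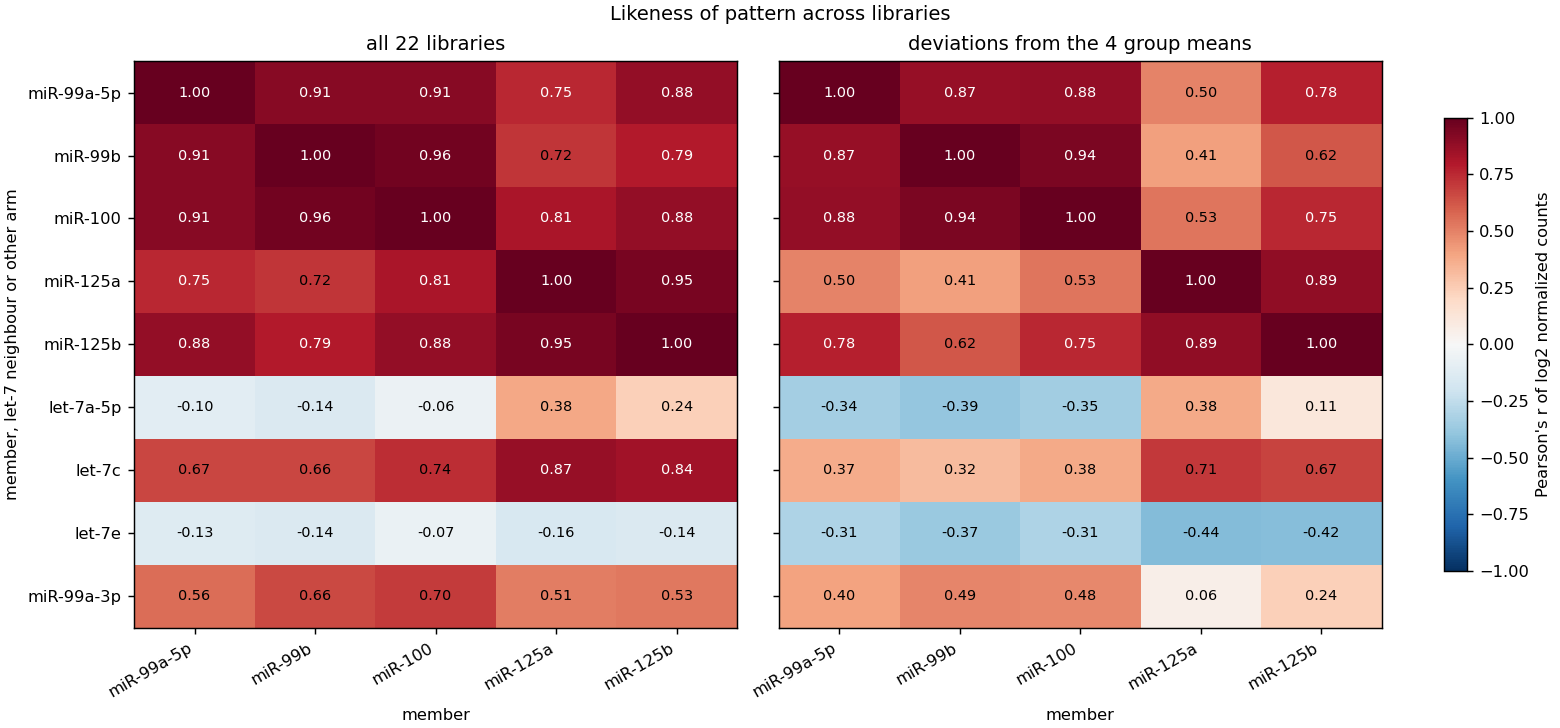
Pearson's r of log2 normalized counts between the members (columns) and the members, 3 let-7 neighbours and the other arm of miR-99a (lines), over 22 libraries at left and as deviations from the 4 group means at right. The values within the miR-99 and miR-100 family (0.91 to 0.96 at left) and within the miR-125 family (0.95) exceed those of miR-99b with its partner miR-125a (0.72 at left, 0.41 at right).

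Outside the families, the miRNAs with the most similar pattern were shared by several members. For miR-99b and miR-100 the closest was miR-1271, with r of 0.95 and 0.97, followed by miR-218 with 0.87 and 0.91, and then by miR-24-3p for miR-99b with 0.87 and miR-199c for miR-100 with 0.90. For miR-99a-5p they were miR-199a-5p (0.94), miR-1271 (0.91) and miR-214 (0.90). MiR-125b had miR-199a-5p, miR-3604 and miR-199a-3p, each at 0.96, and miR-125a had miR-199a-3p, miR-3604 and miR-199c, each at 0.91. These orders are over all 22 libraries and include the differences between groups. After subtraction of the 4 group means miR-1271 stayed the closest to miR-99b (0.91) and miR-100 (0.94). For miR-99a-5p, miR-125a and miR-125b another miRNA then came first. MiR-199a and miR-214 are also on the list of smooth muscle and stroma.

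The let-7 genes in the middle of each cluster did not share one pattern. Let-7c, between miR-99a and miR-125b-2, had an r of 0.84 with miR-125b and 0.67 with miR-99a-5p, whereas let-7e, between miR-99b and miR-125a, had -0.14 and -0.16 with these partners. Among the members let-7c had its highest r, 0.87, with miR-125a of another cluster, and it had 0.74 with miR-100 and 0.66 with miR-99b. Let-7a-5p, which several loci encode, had -0.06 with miR-100 and 0.24 with miR-125b. In let-7c the log2 change was above 0 in 5 of 6 MONT cows, with -0.56 in cow 9615, as for the members.

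Of the 9 let-7 family members 0 were called for REST against CONT in either breed without the block, and let-7i was called with the replicate block in HOLS (log2 fold change 0.33, adjusted p = 0.0386 in edgeR). The fit with the block called 8.02% of all 374 miRNAs as higher in HOLS. The median log2 fold change of the let-7 family was 0.07 in HOLS and 0.07 in MONT, and 0.0039 in MONT without cow 9615, again with 0 called. Between the breeds 0 of 9 were called in CONT and 1 in REST, let-7c, which was higher in MONT by 0.65 ± 0.19 (SE) with an adjusted p of 0.0248 (0.73 ± 0.19 and 0.00610 without cow 9615). Of miR-10a and miR-10b, relatives of the miR-99 family by sequence, 0 of 2 were called without the block, and miR-10a rose in HOLS with it (0.50 ± 0.13, adjusted p = 0.0282).

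Of 7 listed names of opposite arms of the members only miR-99a-3p was in both tables. This strand, cut from the same hairpin as miR-99a-5p, was counted 69 to 324 times per library. For every 1000 counts of miR-99a-5p it had 8.99, 8.70, 10.3, 7.50 and 6.51 counts in HOLS CONT for cows 1155, 1165, 2182, 8200 and 9195, and 4.74, 4.98, 7.42, 6.91 and 5.85 in REST. The share was lower in REST in 5 of 5 HOLS cows, and the periods overlapped. In MONT it had a lowest value of 4.82, a median of 8.05 and a highest of 15.3 in CONT and 4.76, 6.39 and 7.49 in REST, and was lower in REST in 5 of 6 cows, cow 9615 being the exception.

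The strand itself had log2 fold changes of -0.20 ± 0.14 (SE) in HOLS, where it was lower in REST in 5 of 5 cows while miR-99a-5p was higher in 5 of 5, and of 0.06 ± 0.19 in MONT. Neither passed the test, with adjusted p-values of 0.392 and 0.858 in edgeR, and in MONT the value without cow 9615 was 0.14 ± 0.21 with 0.662. In HOLS the log2 change of miR-99a-3p was only -0.001 in cow 9195 and -0.07 in cow 8200. As a share of the library total miR-99a-5p was higher in REST in 4 of 5 HOLS cows. Between the breeds in REST miR-99a-3p was higher in MONT by 0.69 ± 0.16 with an adjusted p of 0.0112, beside the 0.64 ± 0.24 of miR-99a-5p, which did not pass, and without cow 9615 by 0.74 ± 0.18 with 0.00424, beside 0.71 ± 0.18 with 0.00661. The comparison of the arms was chosen after seeing their values, and no test of the share was made.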

How the data were processed

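Small RNA libraries (TruSeq) of mammary biopsies were sequenced by the authors, who quantified reads with ncPRO-seq and miRDeep2. The submitters' processing notes name bcl2fastq 2.17.1.14 and DESeq2 1.18.1. The counts deposited per miRNA and library are raw whole numbers. The deposited normalized values, a signal per library, were made by the authors from these counts with size factors within each breed and were not used for tests. The tables' own fold changes and p-values were not used.

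Normalized counts were recalculated with DESeq2 1.42.0 size factors over all 22 libraries (pseudocount 1 for log2 values). Counts were tested with edgeR 4.0.16 in R 4.3.3 (TMM, filterByExpr with its minimum count of 10, quasi-likelihood F test, Benjamini-Hochberg over all miRNAs tested, threshold 0.05), within each breed for REST against CONT and over 4 groups for breeds and the interaction. All 5 members passed the filter in each fit. Ratios were tested with exact permutation tests and correlations with 100000 permutations (scipy 1.17.1). Steps were tested on simulated data.

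Libraries with the same number come from the same cow per the labels. Deviations of its CONT and REST libraries correlated with r from 0.25 to 0.54 in HOLS. In MONT r was 0.07 to 0.76 for 5 cows and -0.33 for cow 9615. Since no block is described in the methods, the principal test had none. Alternatives were the replicate block, DESeq2, other scaling, no filter and each cow left out. Members, lists and the rule for naming miRNAs (the members, their cluster neighbours and other arms, and the 3 miRNAs most like each member) were chosen with earlier results of these data known. Let-7i and miR-10a were named after their values were seen, as sole calls of their lists. Total counts per library lay between 6087865 and 18913916.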

Additional observations from a re-analysis of the deposited data

Results flagged for a closer look

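MiR-99a-5p in the HOLS REST library of cow 2182 was far from the others of its group, with a normalized count of 10879 against 16648 to 18324 in the other 4. The gap was 0.775 of the group's whole range. It was the single such value among 32 groups of levels and ratios examined, where chance gives 1.6 (about 1 in 20). The CONT library of that cow was also the lowest of its group, at 10330.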

How the results depend on the processing

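In HOLS the number of members called went from 0 to 1 with the replicate block and to 3 with DESeq2 and the block, and leaving out single cows gave 0 to 2. In MONT leaving out single cows gave 0 to 4 without the block and 0 to 5 with it, and in the interaction 0 without the block and 0 to 1 with it, with every call in these arising without cow 9615. For CONT between the breeds the call was lost (0 members) with library size only, without the filter and with libraries of that period alone, while DESeq2 gave 2 and leaving out single cows 0 to 2. For REST 5 members were called with library size only and with libraries of that period alone, and 1 to 5 with single cows left out. The share of all miRNAs called after adjustment is not given for library size only or that period alone. At an unadjusted p under 0.05 in edgeR, 31.9588% of 388 miRNAs passed with library size only. With that period alone 33.0688% of 378 passed, and in the principal test 32.2165% of 388. All 5 members were under 0.05 in each of these fits. With all cows the replicate block changed no other call of a member. Without cow 9615 it added miR-99b in MONT (adjusted p 0.148 without and 0.00471 with the block, edgeR) and miR-125b in the interaction (0.391 and 0.0385). Scaling by library size alone moved the median log2 fold change of all miRNAs in HOLS from 0.02 to -0.15, and the members' median there from 0.30 to 0.14, with all 5 above 0.

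Signs changed where values lay near 0. The interaction of miR-99b, -0.09, was 0.0055 with the replicate block and 0.053 with library size only, and -0.34 to 0.24 with single cows left out (with the block, 0.048 without cow 1165 and 0.012 without cow 1652). That of miR-100 ran from -0.10 to 0.52 (-0.021 with the block and without cow 8200) and that of miR-99a-5p from -0.0100 to 0.54. The log2 ratio of miR-99a-5p to miR-125b between the breeds in CONT, -0.02, was 0.061 as a difference of medians and -0.084 to 0.075 with single cows left out, and its change in HOLS ran from -0.13 to 0.090. The change of miR-99b to miR-125a in HOLS ran from -0.035 to 0.38 and its breed difference in REST from -0.12 to 0.23. That of miR-100 to miR-125b in HOLS ran from -0.040 to 0.20. The causes were not tested. Over all alternatives for single miRNAs and pairs, 27 values passed the threshold where the principal test did not, 12 lost it and 437 kept direction and side. The fits with the block that also leave out a cow, DESeq2 with the block, the lists and paired ratios without cow 9615, and the breed difference in the change of ratios were chosen after seeing the data.

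With 5 and 6 cows, differences of the size seen here in HOLS were within the reach of a single cow, and p-values refer to these cows. Depth did not limit the members, whose lowest count was 3358, but library quality differed between the breeds per the authors.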
